A study of Mus musculus with 12 samples.

Results

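The liver is where most circulating steroid hormones are cleared, and hepatocytes carry the enzymes that switch androgens, estrogens and glucocorticoids between active and weaker forms. The genes examined here were 10 of those enzymes, Hsd3b2, Hsd3b3, Hsd3b5, Hsd11b1, Hsd17b2, Hsd17b6, Srd5a1, Akr1c6, Hsd17b13 and Cyp17a1. They were picked by symbol, and all 10 were among the 23420 gene symbols of the deposited count tables. The tables hold QuantSeq 3′ mRNA counts from the livers of 12 C57BL/6 mice, with 3 wild type males (WTM), 3 Siah2 KO males (KOM), 3 wild type females (WTF) and 3 Siah2 KO females (KOF). Siah2 encodes a ubiquitin ligase, an enzyme that tags proteins for degradation, and the KO mice lacked it in the whole body (Siah2-/-). All livers were taken at Zeitgeber time (ZT) 10, late in the light phase, at about 20 weeks of age from mice kept in 12:12 light and dark. Each genotype was kept as its own homozygous line. These 2 lines were founded from a cross of heterozygotes, so line and genotype cannot be told apart. The study methods describe individual livers and the labels describe pooled RNA, but each library carries the number of 1 mouse and is treated here as that mouse.

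Hydroxysteroid dehydrogenases convert hydroxyl groups of the steroid skeleton to ketones and back, which turns a strong hormone into a weak one or back again. Reductases saturate the rings, cytochrome P450 enzymes add oxygen, and sulfotransferases and glucuronosyltransferases attach groups that make the product ready for excretion. In rodent liver many of these enzymes are known to differ between the sexes, because the pituitary releases growth hormone in pulses in males and more evenly in females.

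Library totals ran from 1293688 to 4056144 counts. QuantSeq yields about 1 tag per transcript at its 3′ end, so counts were not divided by length. Levels are given in CPM, edgeR's normalized count relative to a library total scaled by the TMM method. Siah2 itself ran from 16.7 to 27.0 CPM in WTM, from 9.38 to 17.3 CPM in KOM, from 11.4 to 16.9 CPM in WTF and from 9.58 to 12.5 CPM in KOF, and the genotypes overlapped in both sexes. Its log2 fold change in KO was −0.34 in females (standard error (SE) 0.30, worked back from the test statistic, adjusted p = 0.641) and −0.66 in males (SE 0.29, adjusted p = 0.998) by edgeR's quasi-likelihood test. No source used here places the counted tag with respect to the deletion, so this does not check the genotype. The sex labels held. Xist ran from 65.9 to 113 CPM in females against a highest male value of 0.864 CPM, and Ddx3y from 54.8 to 71.3 CPM in males against a highest female value of 0.718 CPM. Wild type female 1091 stood apart from the other wild type females, since its counts differed from theirs by a chi-square of 42.0 and 45.0 for each degree of freedom, against 6.71 to 21.8 for the other pairs within groups. Results that rest on this mouse are also given without it.

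The members fell into 3 patterns. Hsd3b5, Hsd3b2 and Srd5a1 were higher in males, Cyp17a1 was higher in females, and the other 6 were not called between the sexes over both genotypes. In all 12 mice together, 4 of the 10 members passed an adjusted p of 0.05 between the sexes (edgeR's quasi-likelihood test, Benjamini-Hochberg adjustment over all genes). Of the 9789 genes tested, 7.78% passed. Higher in males were 3 members, beside 4.14% of all genes, and higher in females was 1 member, beside 3.65% of all genes. Between Siah2 KO and wild type mice no member passed in either sex, beside 0.0% of all genes in each of these fits. That count therefore says nothing particular to the members.

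**Figure D1:**
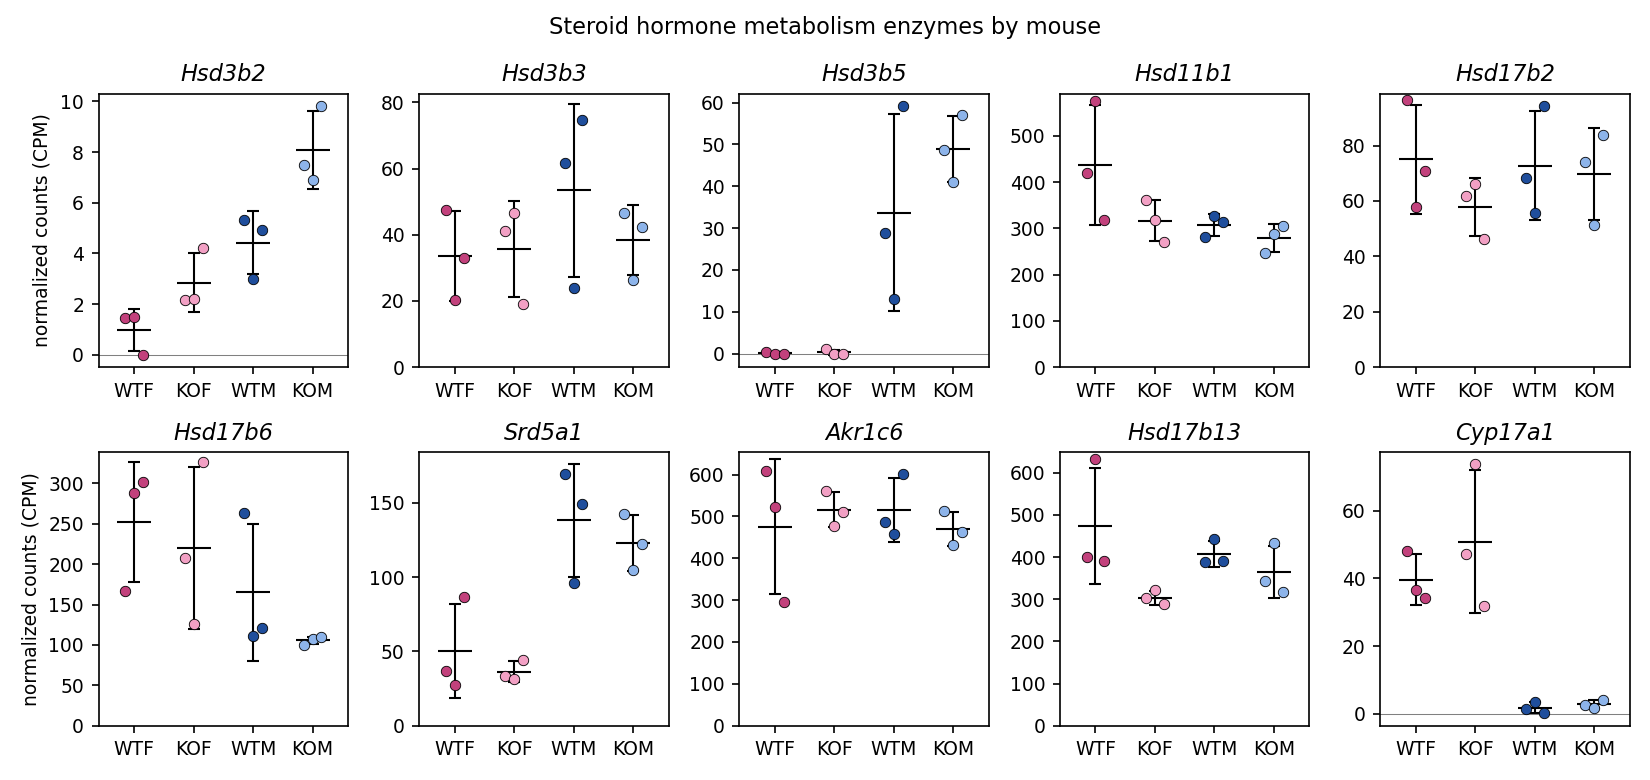
Normalized counts (CPM, y axis, linear, a separate scale in each panel) of the 10 enzymes in each mouse, by group on the x axis. Points are mice, the long bar is the mean and the whiskers are the SD over 3 mice. Hsd3b5, Hsd3b2 and Srd5a1 lie higher in males and Cyp17a1 lies higher in females, and in the panel of Srd5a1 the highest wild type female, at 86.5 CPM, is mouse 1091.

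Among the Hsd3b genes, whose products act on the hydroxyl or keto group of the first steroid ring, Hsd3b5 showed the widest gap. Its product works mainly as a reductase that inactivates potent androgens. The gene spans bases 98618636 to 98645534 of chromosome 3 (GRCm38.p6, minus strand). It had 28.9, 13.0 and 59.2 CPM in WTM 1055, 1086 and 1087, against 48.8, 41.0 and 56.9 CPM in Siah2 KO males 1075, 1076 and 1081. Among females it had 0.359 CPM in WTF 1089 and 1.08 CPM in KOF 1070, and the other 4 females had 0 counts, which allows up to between 0.896 and 1.80 CPM at their depths. Every male lay above every female by a wide margin. In counts, wild type males held 256 and wild type females 1, a ratio of 363 per read counted (95% interval 64.5 to 14370, counting error only). Siah2 KO males held 457 and Siah2 KO females 4, a ratio of 102 (95% interval 39.7 to 377). The test gave an adjusted p of 0.00189 in wild type mice and 1.87e-07 in Siah2 KO mice (edgeR's quasi-likelihood test).

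Hsd3b2, a neighbour of Hsd3b5 on the same strand (bases 98711107 to 98724543), was counted at much lower numbers. It had 5.32, 3.00 and 4.93 CPM in the wild type males and 7.50, 6.91 and 9.82 CPM in the Siah2 KO males. It had 1.44, 1.49 and 0 CPM in wild type females 1089, 1090 and 1091, and 2.16, 2.20 and 4.19 CPM in Siah2 KO females 1070, 1104 and 1105. The sexes did not overlap within either genotype, although the highest Siah2 KO female lay above the lowest wild type male. In Siah2 KO mice the log2 fold change of females relative to males was −1.59 (SE 0.43, adjusted p = 0.0290 by edgeR's quasi-likelihood test). The call rested on few counts, 76 in the males and 21 in the females, and was lost without Siah2 KO male 1075 or 1081 or Siah2 KO female 1070 or 1104, with adjusted p values between 0.0648 and 0.151. It was also lost by DESeq2 (adjusted p = 0.0845) and in an edgeR fit of all 12 mice (adjusted p = 0.128). In wild type mice it had 29 and 9 counts and was filtered out before testing, and over both genotypes the log2 fold change was −1.85 (SE 0.43, adjusted p = 0.0134).

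Hsd3b3, which oxidises steroid precursors in liver and kidney, lies beside these genes from 98741476 to 98764540. It had 24.0 to 74.6 CPM in WTM, 26.4 to 46.5 CPM in KOM, 20.3 to 47.4 CPM in WTF and 19.2 to 46.6 CPM in KOF. All 4 groups overlapped, and it passed in none of the comparisons. Hsd3b3 counts are uncertain, because 31.7% of the 50-base windows in the last 500 bases of its transcript also occur in other genes, Hsd3b2, Hsd3b4 and Hsd3b6 among them. The share was 0.0% for Hsd3b5. For Hsd3b2 it was 9.09%, all in genes outside the family, at the end of its longest transcript (3695 bases). Since the ends of Hsd3b3, Hsd3b4 and Hsd3b6 share windows with Hsd3b2, that value does not show that Hsd3b2 counts are free of relatives. The relatives Hsd3b1, Hsd3b4 and Hsd3b6 had 0 counts in all 12 mice. By counting error alone this allows up to 0.0909 CPM over the 12 libraries together. Of the windows of Hsd3b4, 98.45% also occur in other genes, and of those of Hsd3b6 35.03%. Their tags could have been dropped or counted for relatives, so 0 counts do not show that Hsd3b4 and Hsd3b6 were absent.

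Because the 3 genes differ in sex pattern, the makeup of their counts differed too. Hsd3b5 took 30.2%, 32.5% and 42.7% of the counts of Hsd3b2, Hsd3b3 and Hsd3b5 together in the wild type males, and 47.4%, 55.2% and 52.1% in the Siah2 KO males. The genotypes did not overlap, although the 95% Wilson intervals of wild type male 1087 (38.2% to 47.3%) and Siah2 KO male 1075 (41.6% to 53.4%) did. This share was computed after the values were seen and is given without a test. It rests in part on Hsd3b3, whose counts are uncertain as given above. In CPM, Hsd3b5 and Hsd3b3 each overlapped between the male genotypes. In females the share was at most 2.42%.

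**Figure D2:**
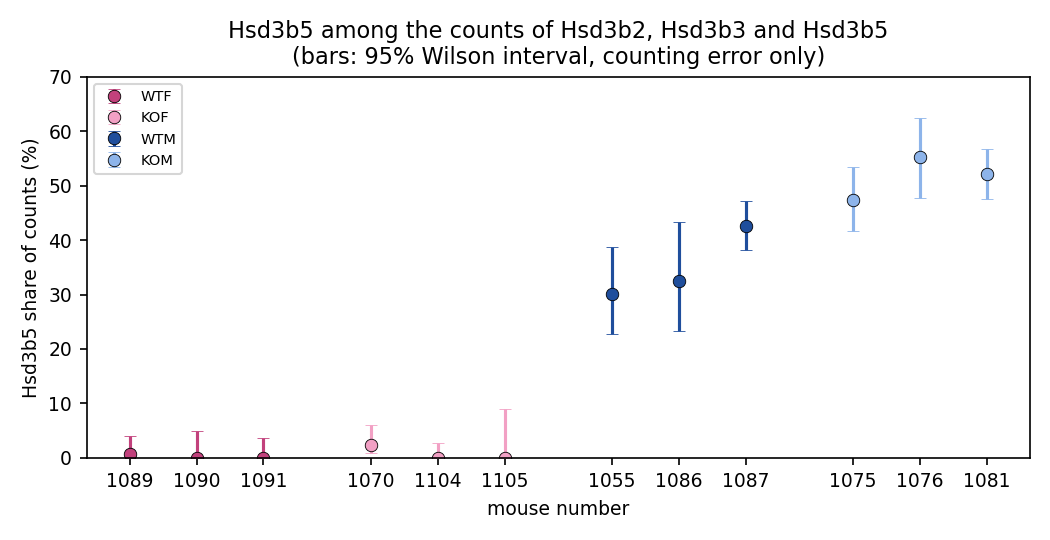
Share of Hsd3b5 (y axis, percent) among the summed counts of Hsd3b2, Hsd3b3 and Hsd3b5 in each mouse (x axis, mouse number), with 95% Wilson intervals that cover counting error only. The 6 females lie between 0.0% and 2.42%, the wild type males between 30.2% and 42.7% and the Siah2 KO males between 47.4% and 55.2%. The counts of Hsd3b3 are uncertain, because part of its transcript end also occurs in other genes.

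The sequences ahead of Hsd3b5 and Hsd3b2 are shown because these neighbouring genes were both higher in males. Each is the stretch of 250 bases that ends just before the RefSeq start site, 5′ to 3′ on the gene's strand in GRCm38.p6, for Hsd3b5 chr3:98645535-98645784 and for Hsd3b2 chr3:98724544-98724793, both on the minus strand. Aligned end to end, the stretches were identical in 53.9% of aligned columns. The share was 54.1% for Hsd3b5 and Hsd3b3, 53.4% for Hsd3b2 and Hsd3b3, and 48.4% for Hsd3b5 and the unlinked Srd5a1. Such an alignment misses likeness at an offset, so these shares do not rank the pairs. Hsd3b5 and Hsd3b3 both hold the run gcaaacacccacataggctcacat, at different distances from their starts.
Hsd3b5: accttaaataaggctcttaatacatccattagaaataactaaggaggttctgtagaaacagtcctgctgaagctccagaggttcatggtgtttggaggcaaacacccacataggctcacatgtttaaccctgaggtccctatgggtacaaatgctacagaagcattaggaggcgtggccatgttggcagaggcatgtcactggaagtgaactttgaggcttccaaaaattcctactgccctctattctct
Hsd3b2: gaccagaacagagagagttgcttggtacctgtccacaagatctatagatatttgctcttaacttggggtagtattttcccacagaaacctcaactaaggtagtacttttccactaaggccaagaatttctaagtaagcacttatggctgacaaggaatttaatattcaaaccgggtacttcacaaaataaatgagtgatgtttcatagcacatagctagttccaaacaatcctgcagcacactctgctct

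No capitals stand in these stretches because no motif searched was found in them. Such stretches were at hand for 8 members, with more than 1 start for Hsd3b3 and Hsd17b6. On both strands they were searched for TATAAA, held by 12.4% of the 32851 RefSeq stretches of this length, TTGCNNAA (C/EBP, 9.56%), AGGTCA (a nuclear receptor half-site, 14.0%), the HNF1 motif (0.00913%), TTCNNNGAA (STAT, 7.02%), the inverted repeat of the estrogen receptor (0.0639%) and ATCGAT (CUX2 and HNF6, 0.728%). The estrogen receptor motif contains most of the half-site. Only Akr1c6, with a TATAAA 164 bases ahead of its start, and Hsd17b13, with a half-site, held a match.

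Srd5a1 encodes a steroid reductase that turns testosterone into dihydrotestosterone and starts the breakdown of several other steroids. The gene spans bases 69573449 to 69611485 of chromosome 13 (minus strand). It had 170 (1055), 96.0 (1086) and 149 (1087) CPM in the wild type males, against 143 (1075), 105 (1076) and 122 (1081) CPM in the Siah2 KO males. In females it had 37.0 (1089), 27.2 (1090) and 86.5 (1091) CPM in wild type, against 33.4 (1070), 31.2 (1104) and 44.3 (1105) CPM in Siah2 KO. Every male lay above every female, and mouse 1091 was the female closest to the males. In Siah2 KO mice the log2 fold change of females relative to males was −1.78 (SE 0.19, adjusted p = 2.36e-05 by edgeR's quasi-likelihood test). In wild type mice it was −1.41 (SE 0.43, adjusted p = 0.164), and without mouse 1091 it was −2.10 with an adjusted p of 0.00192. With mouse 1091 kept, it passed by DESeq2 (adjusted p = 0.0326) and in the edgeR fit of all 12 mice (adjusted p = 0.0230). Over both genotypes it was −1.62 (SE 0.25, adjusted p = 0.000582).

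Cyp17a1 encodes the P450 that hydroxylates and cleaves progestins on the way to androgens, and is best known from gonads and adrenals. The gene spans bases 46667165 to 46673000 of chromosome 19. It had 48.1, 36.4 and 34.2 CPM in wild type females 1089, 1090 and 1091, and 47.2, 73.7 and 31.8 CPM in Siah2 KO females 1070, 1104 and 1105. Wild type males had 1.52, 3.50 and 0.308 CPM and Siah2 KO males had 2.63, 1.73 and 4.17 CPM. Every female lay above every male, mouse 1091 included. The log2 fold change of females relative to males was 4.62 in wild type mice (SE 0.54, adjusted p = 0.00191) and 4.07 in Siah2 KO mice (SE 0.36, adjusted p = 3.16e-06) by edgeR's quasi-likelihood test. The wild type value rested on few male counts and was 5.78 without male 1086 and 3.90 without male 1087, and it passed in both cases. In counts, wild type females held 364 and wild type males 10, a ratio of 25.7 per read counted (95% interval 13.8 to 54.1, counting error only), and the Siah2 KO ratio was 17.1 (11.7 to 26.1).

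Because Cyp17a1 and some Hsd3b genes are also used by steroid-making glands, markers of adrenal and gonad were examined beside them. Cyp11a1, Cyp11b1, Mc2r and Nr5a1 had 0 counts in all 12 mice, and the 7 markers summed to between 1.96 and 8.39 CPM per mouse, with ranges that overlapped in all groups. The 7 hepatocyte markers, such as Alb and Ttr, summed to between 25140 and 39320 CPM.

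Hsd17b6 encodes an oxidative dehydrogenase that can turn androstanediol back into dihydrotestosterone (chromosome 10, bases 127990931 to 128007648, minus strand). It had 263, 111 and 121 CPM in WTM 1055, 1086 and 1087, against 101, 107 and 109 CPM in Siah2 KO males 1075, 1076 and 1081. Wild type females 1089, 1090 and 1091 had 167, 289 and 301 CPM, and Siah2 KO females 1070, 1104 and 1105 had 208, 126 and 326 CPM. The sexes overlapped in wild type mice through male 1055 and did not overlap in Siah2 KO mice. The log2 fold change of females relative to males was 1.06 in Siah2 KO mice (SE 0.25, adjusted p = 0.0147), 0.66 in wild type mice (SE 0.38, adjusted p = 0.448) and 0.84 over both (SE 0.25, adjusted p = 0.0518) by edgeR's quasi-likelihood test. The call in Siah2 KO mice was lost without male 1075 or 1081, with adjusted p values of 0.0580 and 0.0641, and in the edgeR fit of all 12 mice (adjusted p = 0.120). Over both genotypes Hsd17b6 passed without wild type male 1055, wild type female 1089 or 1091, or Siah2 KO female 1104, with the lowest adjusted p of 0.0141 without male 1055, and it passed by DESeq2 (adjusted p = 0.0231).

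Hsd11b1 encodes the reductase that regenerates active glucocorticoid from its inert keto form (chromosome 1, bases 193221640 to 193264045, minus strand). It had 281, 326 and 313 CPM in the wild type males, and 247, 287 and 305 CPM in the Siah2 KO males. Wild type females 1089, 1090 and 1091 had 419, 575 and 317 CPM, and Siah2 KO females had 361, 318 and 271 CPM. Mouse 1091 lay among the males and the other wild type females lay above every male. The log2 fold change of females relative to males was 0.54 in wild type mice (SE 0.26, adjusted p = 0.369 by edgeR's quasi-likelihood test), and without mouse 1091 it was 0.70 with an adjusted p of 0.0462. In Siah2 KO mice it was 0.19 (SE 0.16, adjusted p = 0.499), and the groups overlapped.

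Hsd17b2, which oxidises estradiol and testosterone to weaker ketones, spans bases 117700982 to 117759030 of chromosome 8. It had 55.5 to 94.3 CPM in WTM, 51.4 to 83.9 CPM in KOM, 57.9 to 96.3 CPM in WTF and 46.1 to 66.0 CPM in KOF. Akr1c6, an aldo-keto reductase that works in the opposite direction on androgens and estrogens, spans bases 4434311 to 4457530 of chromosome 13 (plus strand). It had 457 to 601 CPM in WTM, 433 to 512 CPM in KOM, 297 to 609 CPM in WTF and 477 to 561 CPM in KOF. The lowest Akr1c6 value was that of mouse 1091. For both genes all groups overlapped, and the log2 fold change between the sexes lay between −0.26 and 0.14 with SEs between 0.15 and 0.29, and neither passed in either genotype (edgeR).

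**Figure D3:**
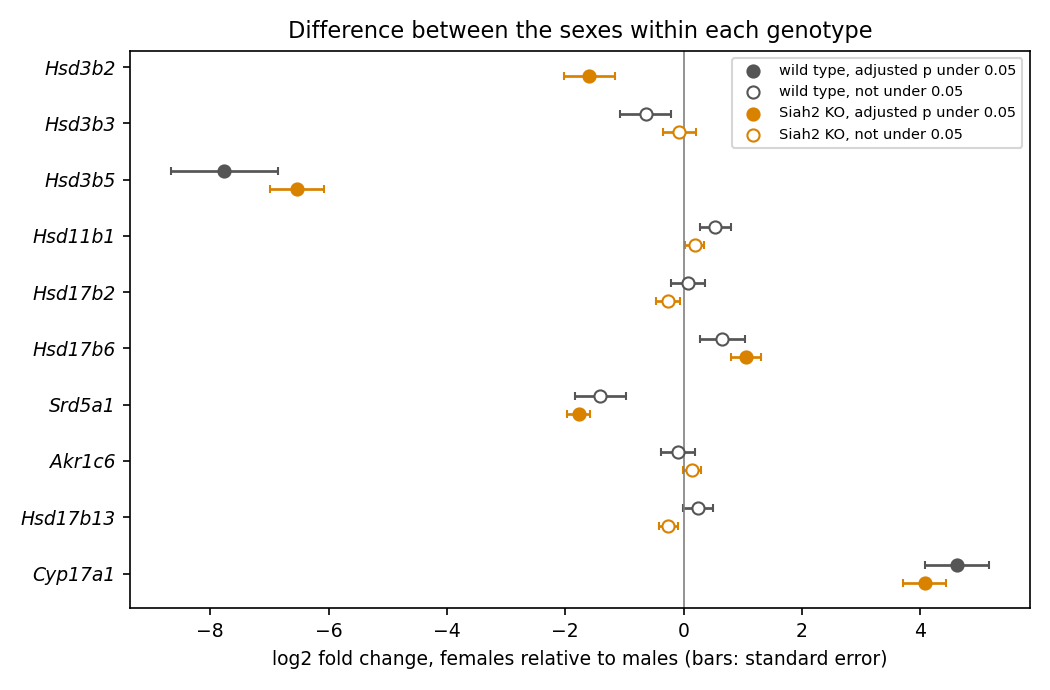
Log2 fold change of females relative to males (x axis, bars are standard errors) for each enzyme (y axis), in wild type mice and in Siah2 KO mice. Filled points passed edgeR's quasi-likelihood test at an adjusted p of 0.05, and Hsd3b2 was not tested in wild type mice. Hsd3b5 at −7.76 and −6.53 and Cyp17a1 at 4.62 and 4.07 lie far from 0 in both genotypes, and the Hsd3b5 values rest on 1 and 4 counts in females and are not exact sizes of change.

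Counted by genotype, 2 of the 9 members tested passed between wild type females and males, Hsd3b5 and Cyp17a1, beside 1.37% of 9320 genes. Higher in females was 1, beside 0.676% of genes, and higher in males was 1, beside 0.697%. Between Siah2 KO females and males 5 of 10 members passed, beside 11.5% of 9087 genes. Higher in females were 2, Cyp17a1 and Hsd17b6, beside 5.7% of genes, and higher in males were 3, Hsd3b5, Hsd3b2 and Srd5a1, beside 5.79%. Without wild type female 1091, 4 members passed in wild type mice, Hsd3b5, Cyp17a1, Srd5a1 and Hsd11b1, beside 7.71% of 9561 genes. In the edgeR fit of all 12 mice in 4 groups, which share 1 estimate of the spread, 3 members passed in wild type mice, beside 5.14% of genes, and 3 in Siah2 KO mice, beside 3.6%, so the order of the genotypes in number of genes called was the opposite. The median log2 fold change of the members tested was 0.07 in wild type and −0.17 in Siah2 KO mice, beside 0.05 and −0.001 over all genes tested. Whether the difference between the sexes changed with genotype was tested directly (edgeR). At an unadjusted p under 0.05 were 0 of 10 members, beside 1377 of 9789 genes. After adjustment 0 members passed, beside 0.255% of the 9789 genes. Without mouse 1091 it was again 0 members, beside 5.11% of genes. The larger number of calls in Siah2 KO mice thus does not show that the genotypes differ. The spread between mice differed as well, with a common biological coefficient of variation of 0.356 in wild type females and between 0.183 and 0.206 in the other 3 groups.

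Within females, none of the 8 members tested passed between Siah2 KO and wild type mice, beside 0.0% of 9449 genes by edgeR's quasi-likelihood test (1475 genes at an unadjusted p under 0.05, 300 called by DESeq2 and 426 by the edgeR fit of all 12 mice, none of them a member). Hsd3b2 and Hsd3b5 were not tested for want of counts, and Hsd3b2 had 9 counts in wild type and 21 in Siah2 KO females, in groups that did not overlap. The 1 member at an unadjusted p under 0.05 was Hsd17b13, a protein of lipid droplets that shares the fold of the family and acts on retinol as well as on steroids. Hsd17b13 had 400, 632 and 390 CPM in wild type females 1089, 1090 and 1091, and 302, 321 and 288 CPM in Siah2 KO females 1070, 1104 and 1105. The groups did not overlap, and the wild type mean was raised by mouse 1090. The log2 fold change was −0.65 (SE 0.26, adjusted p = 0.253). Without mouse 1091 it was −0.76 with an adjusted p of 0.0450, beside 9.49% of genes called, and without mouse 1090 it was −0.40 with an adjusted p of 0.525.

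The Hsd17b13 gene spans bases 103955442 to 103977388 of chromosome 5, and its stretch ahead of the start, chr5:103977389-103977638 on the minus strand, is shown because it was the 1 member at an unadjusted p under 0.05 in females and because it held the 1 half-site match. Capitals mark the half-site, which reads AGGTCA on the other strand and begins 96 bases ahead of the start.
Hsd17b13: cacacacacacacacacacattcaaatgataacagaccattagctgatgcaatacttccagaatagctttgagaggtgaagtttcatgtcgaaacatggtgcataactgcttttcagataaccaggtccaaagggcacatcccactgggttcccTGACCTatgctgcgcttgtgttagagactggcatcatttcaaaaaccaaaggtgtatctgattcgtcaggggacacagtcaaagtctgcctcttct

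The other 7 members tested in females had log2 fold changes between −0.49 for Srd5a1 and 0.36 for Cyp17a1, with SEs between 0.26 and 0.40. The value of Srd5a1 turned to 0.17 without mouse 1091, so its sign rested on that mouse. Hsd11b1 had −0.48 (SE 0.27, adjusted p = 0.438), and its groups overlapped through mouse 1091.

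Within males, 0 of 9 members tested passed, beside 0.0% of 8809 genes by edgeR's quasi-likelihood test (355 genes at an unadjusted p under 0.05, and 6 called by DESeq2, none of them a member). Cyp17a1 was not tested for want of counts. At an unadjusted p under 0.05 were 2 members, both with groups that did not overlap, a trait that was not counted over all genes. Hsd3b2 had a log2 fold change of 0.89 in Siah2 KO males (SE 0.40, adjusted p = 0.998) and Hsd17b6 one of −0.62 (SE 0.26, adjusted p = 0.998). For Hsd17b6 the lowest wild type male, at 111 CPM, and the highest Siah2 KO male, at 109 CPM, were close, and without wild type male 1055 the value was −0.14. Hsd3b5 had 0.49 (SE 0.36, adjusted p = 0.998), with overlapping groups, and the value was 1.28 without wild type male 1087 and 0.11 without wild type male 1086. In males Hsd17b13 had 389, 442 and 391 CPM in WTM 1055, 1086 and 1087 and 344, 433 and 317 CPM in KOM 1075, 1076 and 1081, which overlapped, with a log2 fold change of −0.16 (SE 0.16, adjusted p = 0.998).

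**Figure D4:**
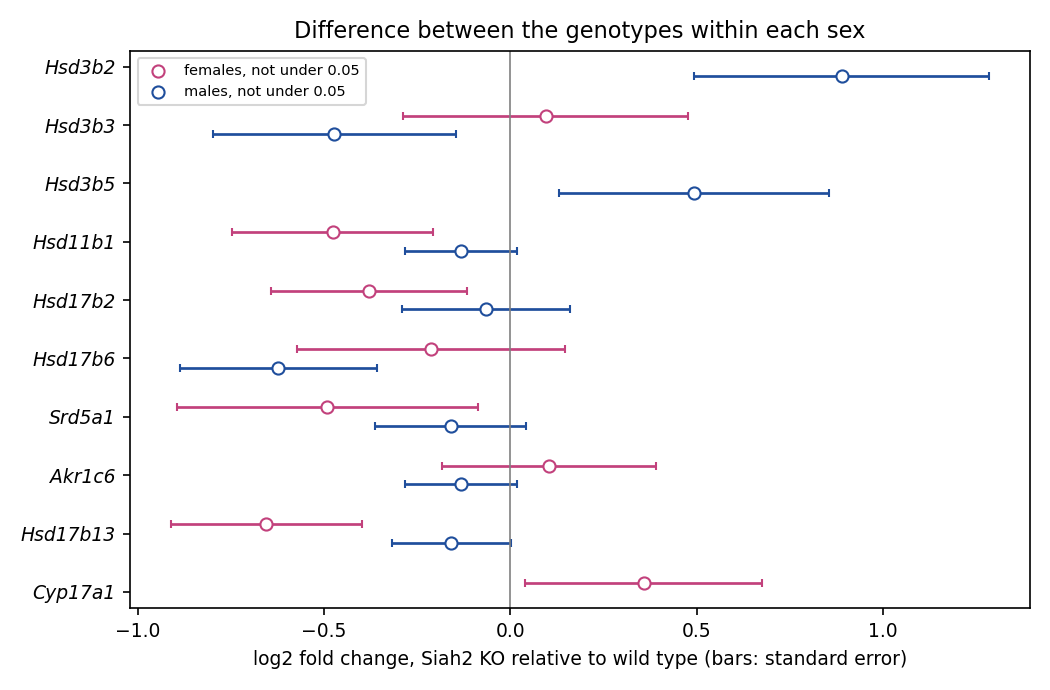
Log2 fold change of Siah2 KO relative to wild type mice (x axis, bars are standard errors) for each enzyme (y axis), in females and in males. All points are open because no member passed edgeR's quasi-likelihood test at an adjusted p of 0.05, and a missing point was not tested. The widest values are 0.89 for Hsd3b2 in males and −0.65 for Hsd17b13 in females.

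With both sexes in a fit, 0 of 10 members passed between the genotypes, beside 0.0102% of 9789 genes (edgeR). Beside 959 of the 9789 genes, 2 members had an unadjusted p under 0.05. They were Hsd3b2, with a log2 fold change of 1.16 (SE 0.43, adjusted p = 0.385), and Hsd17b13, with −0.40 (SE 0.15, adjusted p = 0.387). No member passed there by DESeq2 or limma-voom, with or without quality weights.

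Other enzymes of steroid metabolism, 41 in the tables, were read beside the members. Over both genotypes 10 of the 27 tested passed between the sexes (edgeR), beside 7.78% of all genes, with a median log2 fold change of −0.10. Among the P450 enzymes, Cyp7b1, which hydroxylates oxysterols and sex steroids, was higher in males (log2 fold change −3.15, SE 0.23, adjusted p = 1.24e-07), at 20.2 to 40.1 CPM in females and 122 to 315 CPM in males. Cyp39a1, a hydroxylase of oxysterols, was higher in females (1.42, SE 0.34, adjusted p = 0.0162). H6pd, which supplies the reducing cofactor that Hsd11b1 runs on, was higher in males (−1.09, SE 0.21, adjusted p = 0.00374), at 639 to 897 CPM in males. In females it had 242, 234 and 574 CPM in wild type 1089, 1090 and 1091, and 322 to 395 CPM in Siah2 KO, so mouse 1091 was again the female nearest to the males.

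The conjugating enzymes moved in both directions. Of 7 tested over both genotypes, 2 passed as higher in females, beside 3.65% of all genes, and 4 as higher in males, beside 4.14%. The sulfotransferases Sult2a1 and Sult2a2, which act on steroids and bile acids, had 0 counts in all 6 males and summed to 1340 and 959 counts in females, and Sult2a1 ranged from 1.20 to 195 CPM between females. Sult2a8 was higher in males (log2 fold change −1.80, SE 0.33, adjusted p = 0.00301). So were the glucuronosyltransferases Ugt2b1 (−1.41, SE 0.19, adjusted p = 0.000204) and Ugt2b5 (−0.90, SE 0.17, adjusted p = 0.00423), and Ugt2b38 had 106 counts in males and 1 in females. Akr1c19, an aldo-keto reductase, was also higher in males (−0.78, SE 0.16, adjusted p = 0.00776).

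In wild type mice alone 3 of 27 of these enzymes passed, Cyp7b1, Ugt2b38 and Sult2a2, beside 1.37% of all genes. In Siah2 KO mice alone 13 of 25 passed, beside 11.5% of all genes. Of the 13, 5 were higher in females, beside 5.7% of genes, and 8 were higher in males, beside 5.79%. Among those called in Siah2 KO mice were Akr1c20, Cbr1, Por and Akr1d1, higher in females by between 0.69 and 1.43 on the log2 scale, and Hsd17b12, lower by 0.86 in females. They were not called in wild type mice or over both genotypes. The test of genotype by sex called 0 of 27 of these enzymes, beside 0.255% of genes (edgeR). At an unadjusted p under 0.05 were 3 of them, beside 1377 of 9789 genes. A difference between the genotypes is thus not shown by this fit, and some alternatives called up to 3, as given at the end. In the edgeR fit of all 12 mice 4 of the sex calls in Siah2 KO mice were lost. The adjusted p values were 0.102 for Cbr1, 0.127 for Akr1d1, 0.173 for Hsd17b12 and 0.275 for Por. Each was also lost with 1 or more single mice left out. The call of Akr1d1 was lost by DESeq2 as well. Por passes electrons to the P450 enzymes, Cyp17a1 included, and Akr1d1 saturates the first ring of steroid hormones and bile acid precursors. Hsd17b12 had 515 CPM in mouse 1091, above every other mouse, and 209 and 200 CPM in the other wild type females, and without mouse 1091 it passed in wild type mice (edgeR, adjusted p = 0.0305). Between Siah2 KO and wild type mice 0 of 26 passed in females and 0 of 25 in males, beside 0.0% of genes in each sex (edgeR). DESeq2 called 1 in females, beside 300 genes, and 0 in males, beside 6. At an unadjusted p under 0.05 by edgeR were 2 in each sex. In females they were Akr1d1 (log2 fold change 1.39, SE 0.50, adjusted p = 0.2125) and Akr1c20 (1.05, SE 0.28, adjusted p = 0.128). Akr1d1 had 111.5 to 173 CPM in KOF and 13.95 to 75.0 CPM in WTF, lowest in mouse 1091. Akr1c20 had 78.5 to 105 CPM in KOF and 28.8 to 57.1 CPM in WTF, so neither overlapped.

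**Figure D5:**
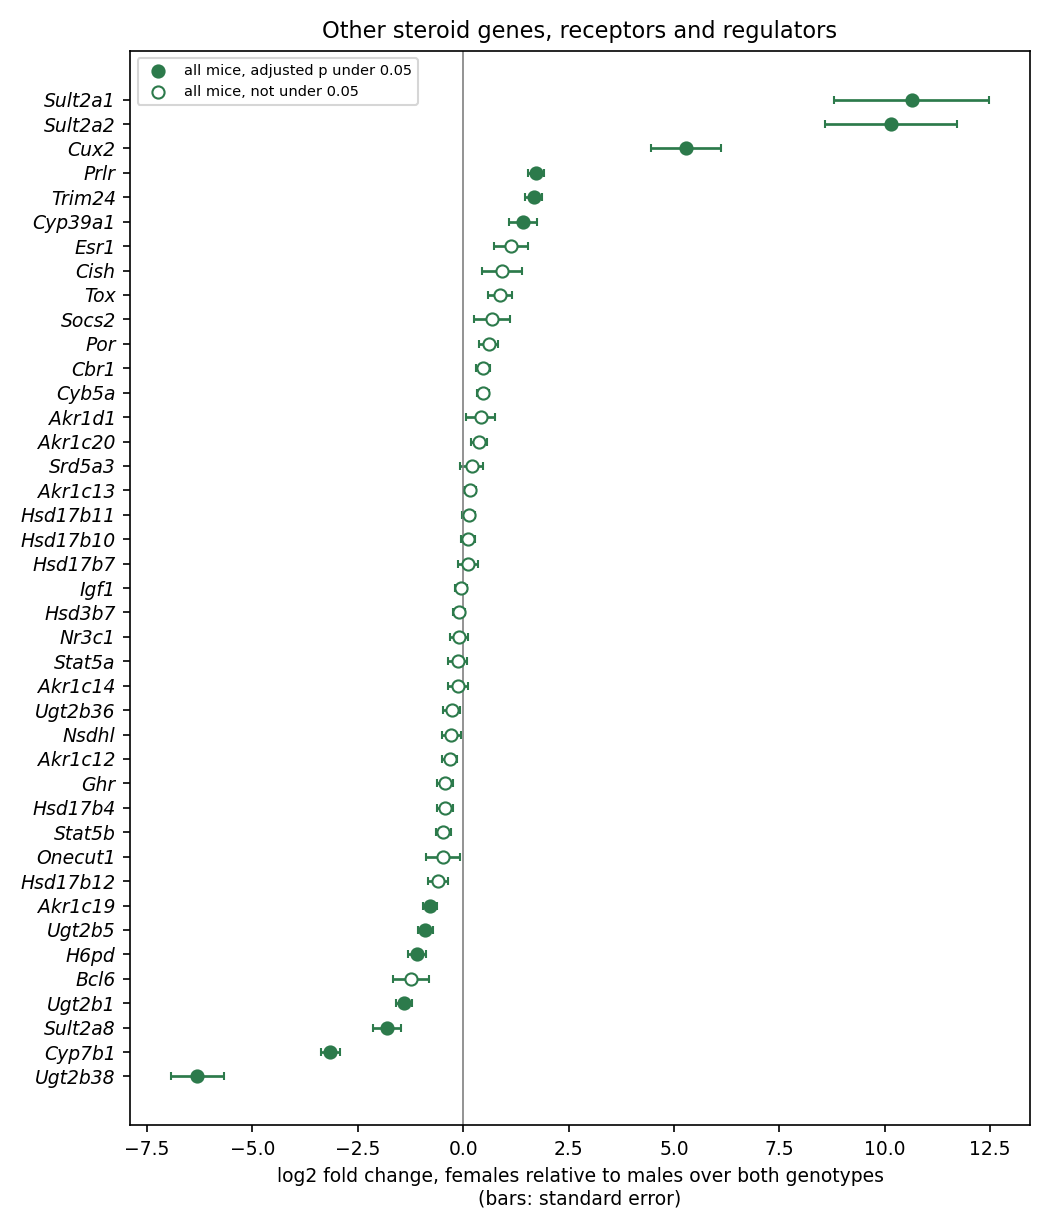
Log2 fold change of females relative to males over both genotypes (x axis, bars are standard errors) of other steroid enzymes, 2 steroid receptors and regulators (y axis, in order of the value). Filled points passed edgeR's quasi-likelihood test at an adjusted p of 0.05. Cyp7b1, at −3.15, and Prlr, at 1.73, lie far from 0 with short bars, and the values of Sult2a1, Sult2a2, Cux2 and Ugt2b38 are not sizes of change because 1 sex was at or near 0 counts.

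Of the receptors that bind these hormones, Esr1 and Nr3c1 showed no called difference between the sexes. Esr1, the estrogen receptor, had 1.89 to 7.90 CPM in females and 0.750 to 5.32 CPM in males. Nr3c1, the glucocorticoid receptor, had 31.4 to 89.0 CPM and 49.0 to 81.6 CPM. Over both genotypes the sexes overlapped for both. For Esr1 the log2 fold change was 1.14 (SE 0.41, adjusted p = 0.0988), and voom with quality weights called it (adjusted p = 0.0451). In wild type mice the sexes did not overlap for Esr1, at 5.39 to 7.90 CPM in females and 2.16 to 5.32 CPM in males (log2 fold change 1.09, SE 0.46, adjusted p = 0.294 by edgeR). Esr1 was counted too thinly for small differences to be detectable at this depth.

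Regulators known to follow sex or growth hormone were compared as well. Prlr, the prolactin receptor, was higher in females (log2 fold change 1.73, SE 0.19, adjusted p = 1.68e-05), at 135 to 243 CPM against 38.3 to 76.5 CPM. Trim24, a transcriptional cofactor, was also higher in females (1.67, SE 0.20, adjusted p = 5.33e-05), and Cux2, a repressor known from female liver, had 62 counts in females and 1 in males. These 3 of 12 regulators passed, beside 7.78% of all genes, and Bcl6, Stat5b and the rest did not.

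Other cell types were read through their markers. Of 7 Kupffer and immune cell markers, 5 were called higher in females over both genotypes, beside 3.65% of all genes. The 7 summed to 449 to 595 CPM in wild type females and 323 to 770 CPM in Siah2 KO females. In males the sum was 76.1 to 573 CPM in wild type and 98.2 to 221 CPM in Siah2 KO, with none at 0. Fewer cells of a type and less RNA per cell cannot be told apart in whole liver. The stellate and endothelial markers summed to 397 to 467 CPM in wild type females and 290 to 337 CPM in Siah2 KO females, without overlap, the same order as Hsd17b13. Of the 5 of these markers tested between the female genotypes, 0 were called and 0 had an unadjusted p under 0.05 (edgeR). The bile duct markers summed to between 9.83 and 56.0 CPM. Of the red cell markers the 4 globin genes had 0 counts, and Alas2, the other one, was called higher in males. Alas2 had 8.43 to 25.1 CPM in females and 83.5 to 154 CPM in males. The 0 globin counts therefore do not show that red cell RNA was absent. Of 7 fat, pancreas and kidney markers 3 had 0 counts, and the sum was between 10.8 and 57.4 CPM. The part of these cells in the members' differences was not tested.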

How the data were processed

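The authors deposited raw read counts per gene symbol, 1 table for each sex, made from QuantSeq 3′ libraries that were trimmed and mapped on the BaseSpace platform. The submitters' processing notes name STAR, DESeq and mm10. The counts carry no normalization and no molecular identifiers, so intervals and limits cover counting error only. Of the symbols, 27 had been turned into dates and held between 0.2285% and 0.2724% of a library's counts. They were kept in totals and not tested.

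Columns were matched to mice by number. Each comparison was fitted on the whole table with edgeR 4.0.16 in R 4.3.3 (filterByExpr, TMM, quasi-likelihood F test, two-sided) and adjusted by Benjamini-Hochberg at 0.05. This test gives no SE of its own. The SEs in text and figures are the size of the log2 fold change divided by the square root of the F statistic. Within-sex and within-genotype fits used 6 mice, and the other 3 contrasts used 12. Alternatives were DESeq2 1.42.0, limma 3.58.1 voom with and without quality weights, RLE scaling, the low-count filter set to 1 count overall or to 10 in each library, a fit of all 4 groups, and each mouse left out. Only the main edgeR fits were also run on simulated counts, in which every group had the same spread. The wider spread of wild type females was not simulated, so that check says nothing about it. The p values measure the spread between these mice. Overlap of groups was read for the listed genes only and not counted over all genes. Non-overlap of 3 and 3 mice is therefore a description without a background share.

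The members, gene lists and motifs were chosen with earlier results of these data known. All members are named, as are the other listed steroid genes and regulators that passed in any comparison and the receptors Esr1 and Nr3c1, and the rest are counted. Of the genes fixed to be named, 1 is not reported here. Older symbols served for Cyb5a, Sult2a8 and Gper1. Positions and promoters come from RefSeq (GRCm38.p6), and shared windows from GENCODE M1 transcripts. The study's own test results, given apart from the counts, were not used.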

Additional observations from a re-analysis of the deposited data

How the results depend on the processing

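No paired analysis was possible because the mouse numbers in the labels are not shared between groups. Depth limits Hsd3b2, Hsd3b5 in females and Cyp17a1 in males, which hold few counts. Over all alternatives 0 members were called between the genotypes in males, over both sexes, and in the test of genotype by sex. In females it was 0 as well, and 0 to 1 with each mouse left out, the 1 being Hsd17b13 without mouse 1091. In females edgeR called 0 genes in the fit of 6 mice and 426 in the fit of all 12 mice, DESeq2 called 300, voom with quality weights 1057, no filter beyond 1 count 479, and edgeR without mouse 1091 920. The test of genotype by sex called 25 genes, and 265 by DESeq2, 557 by voom with quality weights, 325 with no filter and 0 to 517 with each mouse left out, the 517 without mouse 1091. In wild type mice, 0 of 7 members passed between the sexes with at least 10 counts in every library, beside 50 of 6852 genes. This filter removed Hsd3b5 and Cyp17a1. With each mouse left out 2 to 4 passed, beside 42 to 737 genes. In Siah2 KO mice 2 passed with that filter, beside 987 of 7413 genes, and 3 with all 12 mice in 4 groups, beside 352 of 9789. With each mouse left out 3 to 5 passed, beside 486 to 1054 genes. Over both genotypes 2 passed with that filter, beside 593 of 6622 genes. Among the other steroid enzymes the genotype comparison in females called 1 by DESeq2, 3 by voom with quality weights, 2 without a filter, 1 with 4 groups and 0 to 2 with each mouse left out. The counts over all genes are those given above for females. The sex comparison in wild type mice called 5, 7, 7, 6 and 1 to 7 in the same order, beside 334, 800, 533, 503 and 42 to 737 genes. With at least 10 counts in every library it called 1, beside 50 genes. The test of genotype by sex called 1 of them by DESeq2, 3 by voom with quality weights, 2 without a filter and 0 to 2 with each mouse left out. The causes were not tested.

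Signs changed only for members and receptors that were not called. In the genotype comparison of females, voom with quality weights gave −0.11 for Akr1c6, and leaving out mice gave −0.17 to 0.42 for Hsd3b3, −0.62 to 0.066 for Hsd17b6, −0.80 to 0.17 for Srd5a1, −0.13 to 0.32 for Akr1c6 and −0.0063 to 0.59 for Cyp17a1. In males it gave −0.22 to 0.18 for Hsd17b2. Between the sexes of wild type mice, Akr1c6 was 0.10 by voom with quality weights and Nr3c1 −0.020 by voom, and leaving out mice gave −0.18 to 0.30 for Hsd17b2, −0.33 to 0.14 for Akr1c6 and −0.16 to 0.41 for Nr3c1. In Siah2 KO mice leaving out mice gave −0.29 to 0.18 for Hsd3b3. Over both genotypes leaving out mice gave −0.22 to 0.069 for Nr3c1, which was 0.045 by voom with quality weights.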
